A study of Mus musculus with 6 samples.

Results

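Toll-like receptors (TLRs), their co-receptor Cd14 and the adaptor Myd88 were examined in microglia labelled as with or without overexpression of the transcriptional coactivator PGC-1α. The members were 10 genes chosen by name, namely Tlr1, Tlr2, Tlr3, Tlr4, Tlr6, Tlr7, Tlr9, Tlr13, Cd14 and Myd88, out of 23462 genes that array probes could be matched to. They had 17 probes of 56605. Of these, 12 probes for 9 genes were bright enough and unflagged on enough arrays to be tested, and Tlr3 had no testable probe. TLRs are innate immune receptors that bind microbial molecules or products of damaged cells. Those at the cell surface (Tlr1, Tlr2, Tlr4, Tlr6) mostly sense lipids and lipoproteins, whereas those in endosomes (Tlr3, Tlr7, Tlr9, Tlr13) sense nucleic acids. Most of them signal through Myd88 to NF-kB, which induces inflammatory cytokines, and microglia are the main cells of the brain parenchyma that carry them.

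RNA of primary microglia was hybridised to 6 Agilent arrays of 1 colour, 3 for PGC-1αf/f and 3 for mPGC-1α mice. All mice were labelled male and aged 10 weeks, and the study's mice had a C57BL/6 background. PGC-1αf/f mice carry a loxP-controlled PGC-1α transgene tagged with eGFP, which both groups therefore share. The mPGC-1α mice carry in addition a tamoxifen-inducible Cre in the Cx3cr1 locus, a gene that is active in microglia and also in other myeloid cells, and littermates with the PGC-1αf/f genotype were the controls. The study's methods describe tamoxifen on consecutive days and then an interval before experiments, and do not say for the arrays whether control mice received it. Cells were selected through the surface receptor P2RY12. Since RNA came from bulk cells, fewer cells of a type and less RNA per cell cannot be told apart.

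Several arrays stood apart. The mean correlation of an array with the others was 0.928 for PGC-1αf/f replicate 3 and 0.962 to 0.972 for the rest. On mPGC-1α replicate 3 none of 7 probes for 4 Y-linked genes was well above background, whereas 5 or 6 were on each of the other arrays, although the label gives a male mouse. The single probe for Xist, which is transcribed from the inactive X chromosome of females, was well above background on that array, and on replicate 2 of both groups together with Y-linked probes. Values without replicate 3 of a group are given beside a part of the results. The brighter probe of Ppargc1a, the gene of PGC-1α, was at 0.19, -0.44 and -1.21 in PGC-1αf/f and at 0.57, 0.28 and 0.08 in mPGC-1α microglia, with overlapping groups and a difference of 0.80 (SE 0.35, adjusted p 0.306, limma). Markers of the labelled cell type were present. All probes of 16 microglial genes, among them P2ry12, Tmem119 and Sall1, were well above background on all 6 arrays. All arrays lay on 1 slide with each group in a row of its own, so slide row and group cannot be told apart. Intensity at the 75th percentile ran from 1012 to 2138 per array, no spot was saturated, and 27025 to 30272 of 59305 spots were well above background.

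To determine whether PGC-1α overexpression altered the expression of these receptors, each probe was compared between the groups. Levels below are log2 signal less the 75th percentile of that array, so that 0 is this percentile, and differences are mPGC-1α minus PGC-1αf/f. By limma, 0 of the 12 tested member probes passed an adjusted p of 0.05 (the range was 0.417 to 0.966), where 0.0792% of all 25257 tested probes did. There were also 0 with an unadjusted p under 0.05, where 7.53% of all tested probes were higher and 9.21% lower. Differences ran from -0.30 to 0.26, with 6 above and 6 below 0 (4 and 8 with quantile normalization, scaling to the array median or normexp correction), and standard errors from 0.12 to 0.31. The 95% intervals of all 12 held 0, and 11 lay within 1 log2 unit of 0 on both sides. The exception was Tlr4, which had 2 usable values in each group. Without mPGC-1α replicate 3 the differences ran from -0.30 to 0.18, and without replicate 3 of both groups from -0.22 to 0.22, again with 0 at an unadjusted p under 0.05. With 1 probe a gene, the median over 8 members was 0.02, and over all 12302 genes it was 0.03.

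**Figure D1:**
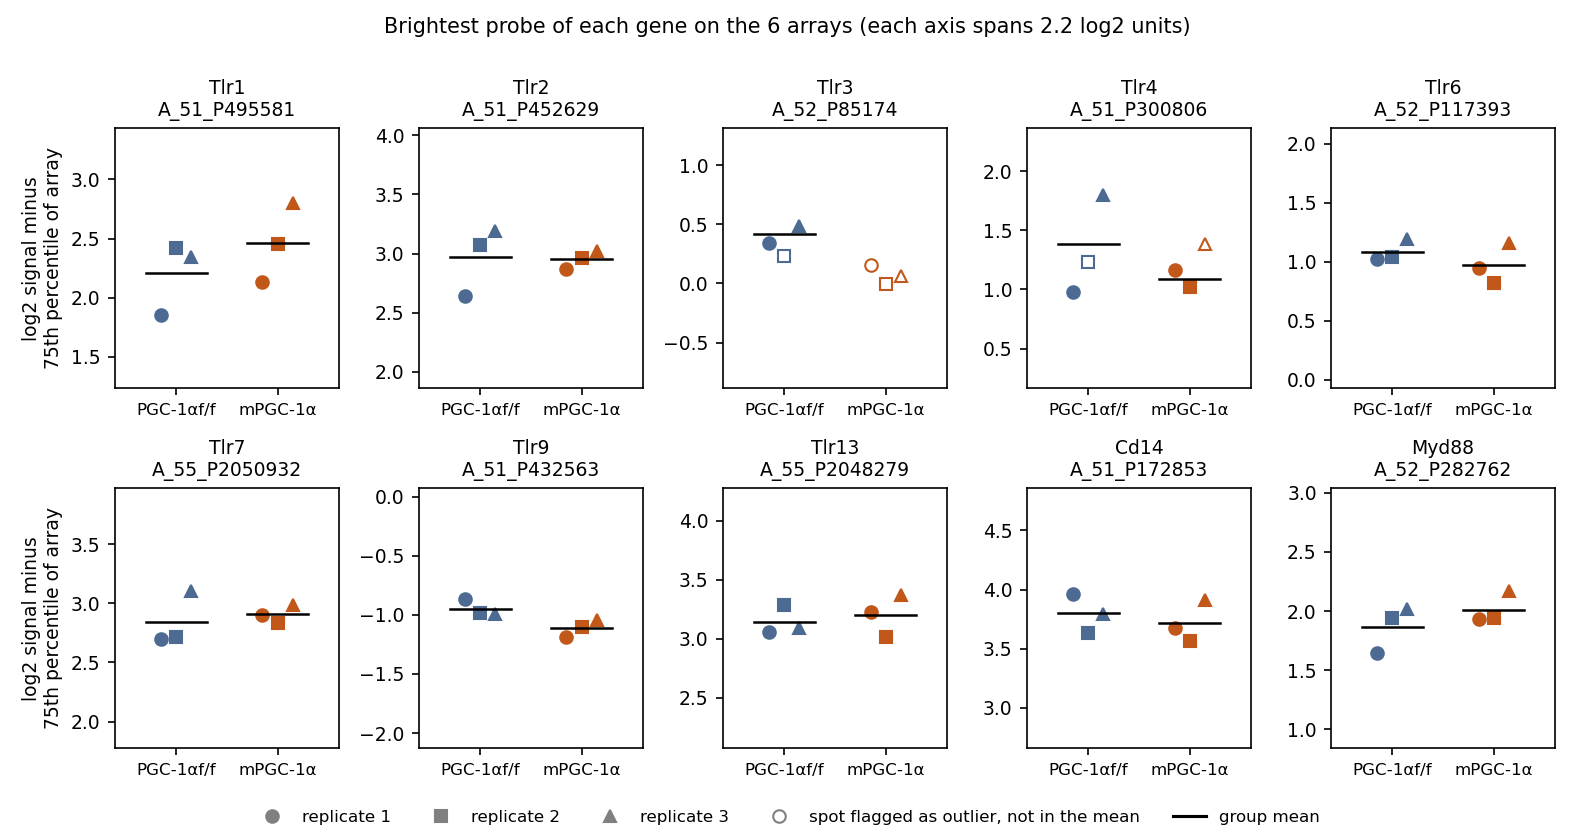
Log2 signal relative to the 75th percentile of the array (vertical axes, each spanning the same number of log2 units) of the brightest probe of each of the 10 genes on the 3 PGC-1αf/f and 3 mPGC-1α arrays. Points are arrays with a shape per replicate number, open points are spots that the scanner software flagged as outliers, and lines are group means without them. Among genes with 6 unflagged values, only Tlr9 has groups that do not overlap.

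Among surface receptors, Tlr2 recognises bacterial lipoproteins together with Tlr1 or Tlr6. Tlr2 was at 2.64, 3.07 and 3.19 in PGC-1αf/f and at 2.87, 2.97 and 3.02 in mPGC-1α microglia. The mPGC-1α values lay inside the range of the controls. The difference was -0.02 (SE 0.17, adjusted p 0.966, limma), or a fold of 0.988 with a 95% interval from 0.741 to 1.32. Without PGC-1αf/f replicate 3 it was 0.09, and without mPGC-1α replicate 3 it was -0.05.

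The promoter of Tlr2 is shown because this receptor gene is itself a target of NF-kB, the factor at the end of the pathway. The window covers 250 bases before to 50 after the start site at chr3:83841559-83841858 on the minus strand (RefSeq, GRCm38.p6), written 5′ to 3′ in lower case, and capitals mark matches to the NF-kB element. Positions are counted from the start site and are negative before it.
Tlr2 promoter: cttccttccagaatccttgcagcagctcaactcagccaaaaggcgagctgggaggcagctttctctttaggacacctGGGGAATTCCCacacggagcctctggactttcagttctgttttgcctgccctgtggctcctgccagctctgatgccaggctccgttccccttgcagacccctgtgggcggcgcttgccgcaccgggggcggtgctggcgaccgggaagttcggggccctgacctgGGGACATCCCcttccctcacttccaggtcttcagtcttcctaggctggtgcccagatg
On both strands, the NF-kB element matched in 2 stretches of the Tlr2 window, at -173 and -172 with overlap, and at -8. Such a match was present in 8.46% of 32851 promoter windows of this length. The matches are a description of the letters, and no binding was measured here.

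Tlr1 had 2 probes matched to different transcripts, and both had means above those of the controls. The brighter probe was at 1.85, 2.42 and 2.34 in PGC-1αf/f microglia and at 2.13, 2.45 and 2.80 in mPGC-1α microglia. The other probe was at 1.60, 1.59 and 1.74 in PGC-1αf/f and at 1.65, 1.98 and 2.06 in mPGC-1α microglia. In both cases mPGC-1α replicate 1 lay among the controls, so the groups overlapped. Differences were 0.25 (SE 0.23, adjusted p 0.591) and 0.26 (SE 0.15, adjusted p 0.417), the latter being the smallest adjusted p among the members. With arrays left out 1 at a time they ran from 0.08 (without replicate 1 of PGC-1αf/f or replicate 3 of mPGC-1α) to 0.42 and from 0.18 to 0.38. Across the 6 arrays, the 2 probes had a Pearson r of 0.771.

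Tlr6, the other partner of Tlr2, was at 1.02, 1.04 and 1.19 in PGC-1αf/f and at 0.95, 0.82 and 1.15 in mPGC-1α microglia. Replicate 3 of mPGC-1α lay within the control range and the others below it. The difference was -0.11 (SE 0.14, adjusted p 0.710). It was -0.20 without mPGC-1α replicate 3 and -0.03 without mPGC-1α replicate 2, and with each other array left out it lay between these. Tlr4, the receptor for lipopolysaccharide, was measured less well. Its unflagged values were 0.98 and 1.80 in PGC-1αf/f and 1.17 and 1.02 in mPGC-1α microglia, so that the controls spanned both mPGC-1α values. The difference of -0.30 (SE 0.31, adjusted p 0.659) had an interval from -1.11 to 0.52, which leaves out neither a fold of 0.465 nor one of 1.43. Without PGC-1αf/f replicate 3 it turned to 0.12, and without PGC-1αf/f replicate 1 it was -0.71. Each of these fits left 1 control value, so no p is given for them. With the flagged spots kept the Tlr4 difference was -0.15 (SE 0.23, adjusted p 0.764). A second Tlr4 probe was well above background on no array.

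Cd14, which hands lipopolysaccharide to Tlr4 and its partner Ly96, was at 3.96, 3.64 and 3.80 in PGC-1αf/f and at 3.68, 3.56 and 3.91 in mPGC-1α microglia at its brighter probe. A second probe gave 3.51 and 3.81 where unflagged in PGC-1αf/f and 3.69, 3.24 and 3.62 in mPGC-1α microglia. The groups overlapped at both probes. Differences were -0.08 (SE 0.16, adjusted p 0.816) and -0.14 (SE 0.21, adjusted p 0.741). With arrays left out 1 at a time the brighter probe ran from -0.18 to 0.0021. Ly96, which is not a member but completes the lipopolysaccharide receptor, differed by 0.05 (SE 0.16, adjusted p 0.879), a value that turned to -0.04 without PGC-1αf/f replicate 3.

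Among the endosomal receptors, Tlr7 senses single-stranded RNA. It was at 2.70, 2.72 and 3.11 in PGC-1αf/f and at 2.90, 2.84 and 2.98 in mPGC-1α microglia, and PGC-1αf/f replicate 3 was the highest array. The difference was 0.07 (SE 0.16, adjusted p 0.850). A second bright Tlr7 probe was flagged on 5 arrays and gave 0.02 (SE 0.16, adjusted p 0.968) with flagged spots kept, and another was well above background on no array. Tlr7 lies on the X chromosome, as does Tlr13, and without mPGC-1α replicate 3 its difference was 0.03. The sign of these small differences turned with the scaling.

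Tlr13, a receptor for bacterial ribosomal RNA that rodents have and humans lack, had 2 probes that did not track each other. The brighter probe was at 3.06, 3.29 and 3.09 in PGC-1αf/f and at 3.22, 3.02 and 3.37 in mPGC-1α microglia, with a difference of 0.06 (SE 0.15, adjusted p 0.863). The dimmer probe was at 0.33, -0.20 and -0.37 in PGC-1αf/f and at 0.26, -0.09 and -0.01 in mPGC-1α microglia, with a difference of 0.13 (SE 0.21, adjusted p 0.766). Over the 6 arrays their r was -0.02. Before scaling, the intensity of the dimmer probe ran only from 1270 to 1654, while that of the brighter probe ran from 8432 to 18196. Without mPGC-1α replicate 3 the differences were -0.02 and 0.17.

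Tlr9, the receptor for unmethylated CpG DNA, was the only tested member probe with 6 values whose groups did not overlap. Its values were -0.86, -0.99 and -0.99 in PGC-1αf/f and -1.18, -1.10 and -1.04 in mPGC-1α microglia, every mPGC-1α array lying below every control. Such a pattern was seen in 13.7% of the 22997 tested probes with 6 values, and the opposite one in 11.4%, so 1 of the 10 tested member probes with 6 values was no more than the background. Without the filter on dim probes a second one was added, a Tlr7 probe that was well above background on no array. The difference was -0.16 (SE 0.12, adjusted p 0.518), with an interval from -0.46 to 0.13 and thus a fold between 0.729 and 1.09. Within slide columns 1 and 2, which held an array of each group, it was -0.32 and -0.12. With arrays left out 1 at a time it ran from -0.20 to -0.12.

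Tlr3 binds double-stranded RNA and signals without Myd88. Its brighter probe was flagged on 4 arrays and had 2 usable values, 0.34 and 0.49, both from PGC-1αf/f microglia, and so was not tested. When the flagged spots were kept, the controls were at 0.34, 0.24 and 0.49 and the mPGC-1α arrays at 0.16, -0.01 and 0.06. Every mPGC-1α value was then below every control, with a difference of -0.28 (SE 0.13, unadjusted p 0.0697, adjusted p 0.326, limma). With flagged spots left out, 13.7% of the tested probes with 6 values had this order. A second Tlr3 probe was well above background on 2 of 3 arrays in each group and was not tested either.

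Myd88, the adaptor that most TLRs and the interleukin-1 receptor family share, was at 1.65, 1.94 and 2.01 in PGC-1αf/f and at 1.93, 1.94 and 2.17 in mPGC-1α microglia. Only mPGC-1α replicate 3 lay above all controls. The difference was 0.15 (SE 0.15, adjusted p 0.649), a fold of 1.11 with an interval from 0.858 to 1.43. Within slide columns 1 and 2 it was 0.28 and -0.0022, and with arrays left out 1 at a time it ran from 0.03, with replicate 1 of PGC-1αf/f left out, to 0.22.

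The promoter of Myd88 is shown as the adaptor common to the pathway, at chr9:119339969-119340268 on the minus strand (RefSeq, GRCm38.p6), in the same layout, with capitals for the interferon-stimulated response element (ISRE, searched on both strands as a pair of GAAA runs with any 2 bases between them).
Myd88 promoter: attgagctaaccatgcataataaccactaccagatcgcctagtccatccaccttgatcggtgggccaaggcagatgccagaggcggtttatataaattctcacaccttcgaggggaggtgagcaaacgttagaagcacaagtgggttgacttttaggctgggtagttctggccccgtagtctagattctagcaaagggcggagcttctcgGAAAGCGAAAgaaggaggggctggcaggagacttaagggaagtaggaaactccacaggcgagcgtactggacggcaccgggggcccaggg
The ISRE matched once in this window, at -40, and was present in 3.44% of all windows. The reference held 9 windows for 7 members (Tlr1, Tlr2, Tlr3, Tlr6, Tlr9, Tlr13 and Myd88). Among the others, Tlr6 had 2 overlapping ISRE matches, Tlr3 an NF-kB match and Tlr1 and Tlr9 each a match to the PU.1 element (GAGGAAGT, in 3.2% of all windows), the site of a factor that directs microglial identity. No member window held the element of the estrogen-related receptors that PGC-1α coactivates (TNAAGGTCA, in 1.28% of all windows), which says only that these letters were not in the window.

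**Figure D2:**
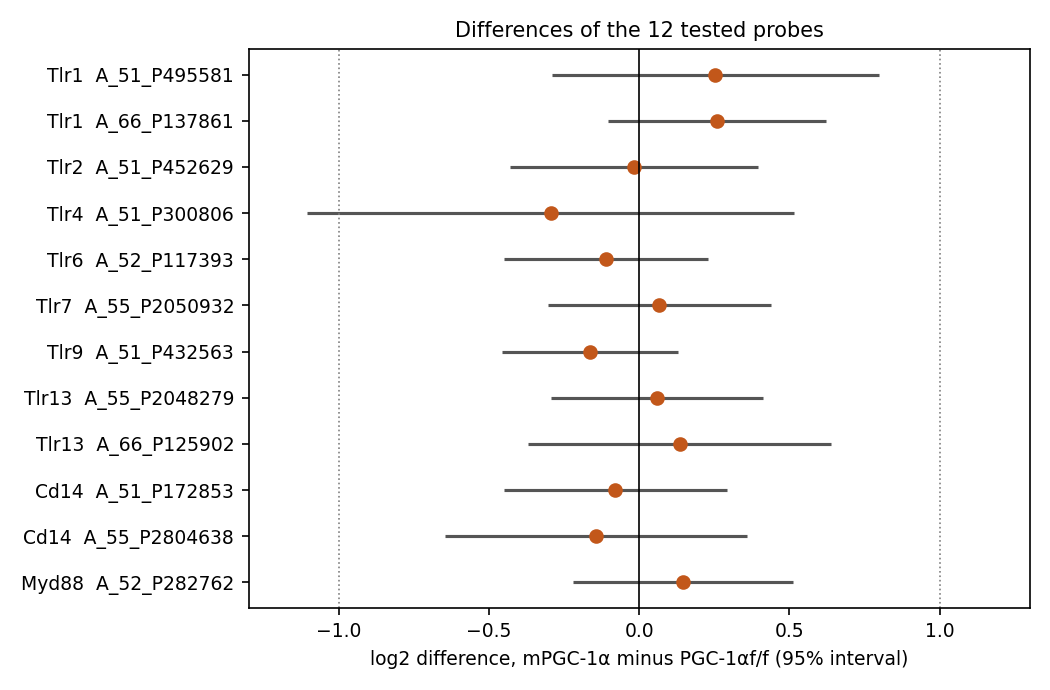
Log2 difference, mPGC-1α minus PGC-1αf/f (horizontal axis), of the 12 tested member probes, with 95% intervals from limma as bars and dotted lines at 1 log2 unit on each side. All intervals hold 0, and that of Tlr4, with 2 values in each group, is the widest.

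The members varied together to different degrees across the 6 arrays. Among brightest probes, Myd88 had r values of 0.920 with Tlr1 and 0.779 with Tlr2, and Tlr2 had 0.700 with Tlr1. The dimmer Tlr13 probe ran opposite to Tlr2 (r -0.936). Before scaling, the intensity of that probe ran only from 1270 to 1654, while the 75th percentile of the arrays ran from 1012 to 2138. The part of the scaling in this r was not tested. The genes with the most similar profiles among 12301 were A930006K02Rik, Jak3 and Paqr7 for Tlr1, Stat5b, Cyp2r1 and Trp53i13 for Tlr2, and Icosl, Preb and Usp2 for Myd88. For Tlr6 they were Dmrtb1, Crk and Stard3nl, for Tlr7 Zfp598, 5730480H06Rik and Mtus1, and for Tlr9 Sybu, Slc9a7 and Klhl9. Nxt2, Ntpcr and Nme3 were nearest to the brighter probe of Tlr13 and Ptges, Snx5 and Glyctk to that of Cd14. The nearest gene had an r of 0.979 (Nxt2) to 0.998 (A930006K02Rik). These are values over 6 arrays, which share brightness and group, and 6 to 66 genes had an r over 0.95 with a given member probe.

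The wider pathway was then described with 5 lists of 89 other genes. Of the 69 with a tested probe carrying 6 values, 15 were higher and 2 lower by an unadjusted p under 0.05. Of all genes, 8.16% were higher and 5.71% lower. Among the 15 were Cxcl2 and Nos2, which were well above background on 1 of 3 PGC-1αf/f arrays. Rel, among the 2, was so on 2 of 3 mPGC-1α arrays. When the brightness filter had to be met on all 6 arrays, 15 of 65 genes had such a p, and 14 of these were higher. No share of all genes is given for that filter. Over the 69 genes the median difference was 0.0089, against 0.03 over all genes. With mPGC-1α replicate 3 left out, 10 of 70 rather than 17 had such a p, and without replicate 3 of both groups it was 9.

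**Figure D3:**
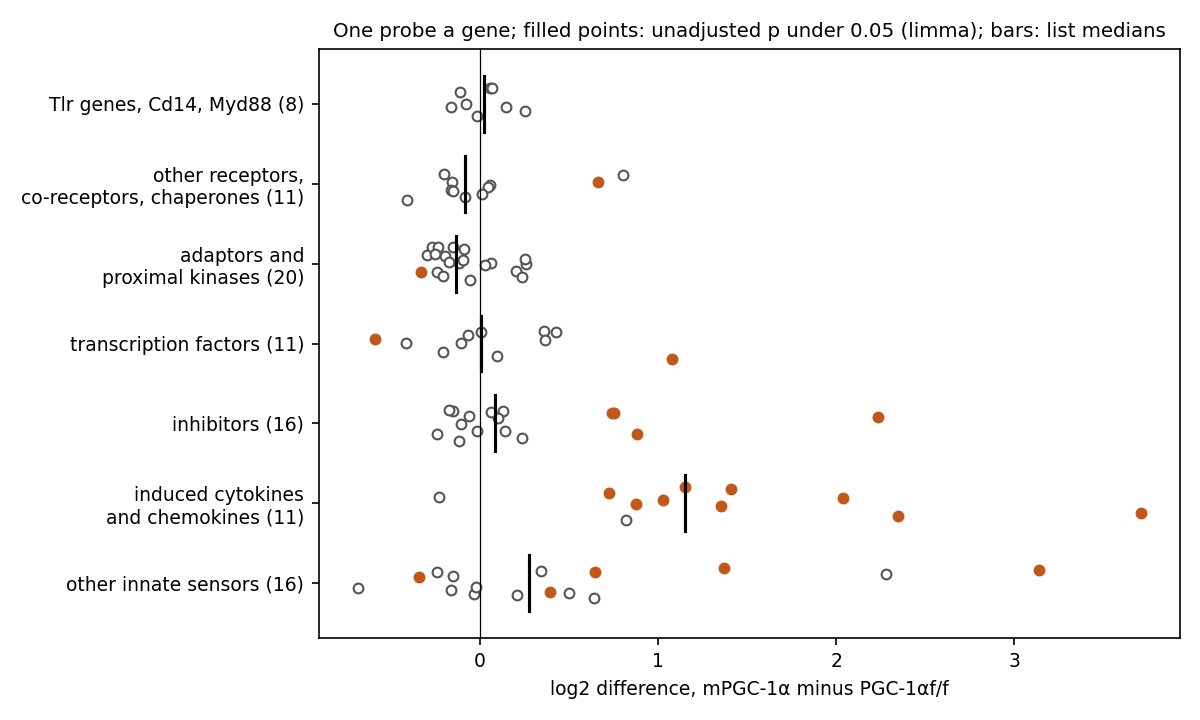
Log2 difference, mPGC-1α minus PGC-1αf/f (horizontal axis), of 1 probe a gene in the member list, 5 lists of the TLR pathway and a list of other innate sensors, with the number of genes in brackets. Filled points have an unadjusted limma p under 0.05 and vertical bars are list medians. The medians of the members and of the receptor, adaptor and kinase lists lie near 0, while 10 of 11 induced cytokines and chemokines lie above it, of which Cxcl2 and Nos2 were well above background on 1 of 3 PGC-1αf/f arrays.

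Other receptors, co-receptors and chaperones had a median of -0.08 over 11 of 16 genes, with 1 higher and 0 lower by unadjusted p (0 to 1 and 0 to 1 with arrays left out 1 at a time). The median was 0.03, over 13 genes, on leaving out mPGC-1α replicate 1. The higher gene was Tlr8, an X-linked relative of Tlr7, with a difference of 0.66 (SE 0.25, adjusted p 0.267). It was 0.37 without replicate 3 of both groups (unadjusted p 0.194) and 0.32 with array weights (unadjusted p 0.149, limma). Tlr12, a receptor for profilin, had mPGC-1α values of 0.93, 1.55 and 1.43, below all control values of 1.59, 1.75 and 1.80. This order was that of 13.7% of the tested probes with 6 values. Tlr12 differed by -0.41 (SE 0.19, adjusted p 0.329), or by -0.22 without mPGC-1α replicate 1. Lbp, which delivers lipopolysaccharide to Cd14, differed by 0.80 (SE 0.38, adjusted p 0.337) with overlapping groups, or by 0.43 without PGC-1αf/f replicate 3. Slc15a4, an endolysosomal transporter, differed by -0.16, or by -0.09 without mPGC-1α replicate 1. Unc93b1, which escorts the endosomal receptors, lacked a value on 1 array and differed by 0.12 (SE 0.18, adjusted p 0.763).

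Adaptors and proximal kinases had 6 genes above and 14 below 0 among 20 of 22, with a median of -0.14, and 1 was lower and 0 higher by unadjusted p (0 to 1 and 0 to 1 with arrays left out 1 at a time). That gene was Pik3ap1, an adaptor that links TLRs to phosphoinositide kinase, with a difference of -0.33 (SE 0.13, adjusted p 0.282). Tbk1, the kinase that activates interferon regulatory factors, differed by -0.30 (SE 0.13, adjusted p 0.302). The groups of both genes did not overlap, which held for 5 of the 20 genes. Among all tested probes with 6 values, the shares were 13.7% with mPGC-1α lower and 11.4% with it higher. Ube2v1 and Tab1, which act in ubiquitin signalling and kinase activation after Traf6, differed by 0.20 and 0.26. With scaling to the array median these were 0.07 and 0.12, and Tab1 was at 0.16 without mPGC-1α replicate 2. The printed probe of Ube2v1 was the brightest of 3, and the others gave -0.0058 and 0.15. Scaling to the median of each array, which put the median of all probes at -0.14, gave a list median of -0.27.

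Transcription factors had a median of 0.0040 over 11 of 12 genes, with 1 higher and 1 lower by unadjusted p. Among the 9 well above background on all 6 arrays the median was 0.09, with 2 higher and 0 lower. With arrays left out 1 at a time 1 to 3 were higher (3 with replicate 3 of PGC-1αf/f left out) and 0 to 2 lower. Irf7, an interferon regulatory factor downstream of Tlr7 and Tlr9 that interferon also induces, was at 1.23, 1.41 and 0.88 in PGC-1αf/f and at 2.04, 2.33 and 2.39 in mPGC-1α microglia. Every mPGC-1α array lay above every control, a pattern of 11.4% of the tested probes with 6 values. The difference of 1.08 (SE 0.18) did not pass the threshold (adjusted p 0.0970) and was 0.86 without replicate 3 of both groups. It passed with array weights (0.91, adjusted p 0.0215), a setting in which 1280 of all 25257 tested probes passed, rather than 20. The adjusted p of Irf7 ran up to 0.372 over the alternatives. A second Irf7 probe differed by 1.93 (SE 0.33, adjusted p 0.0987). Rel, an NF-kB subunit, had a fitted difference of -0.59, or -0.38 without mPGC-1α replicate 1, and was well above background on 2 of 3 mPGC-1α arrays. Relb, another NF-kB subunit, and Jun, of the AP-1 complex, each differed by 0.36. Relb was at 0.20 without PGC-1αf/f replicate 1, and both were at 0.23 with scaling to the array median.

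Inhibitors of the pathway held the single list gene past the threshold. Dusp1, a phosphatase that switches off MAP kinases, was at 0.60, 0.89 and 0.82 in PGC-1αf/f and at 2.80, 3.02 and 3.20 in mPGC-1α microglia. It rose by 2.24 (SE 0.16, adjusted p 0.0122, limma), and among the settings that left out arrays the call was lost without mPGC-1α replicate 3 (2.14, adjusted p 0.0827), without mPGC-1α replicate 2 (2.23, adjusted p 0.125), without PGC-1αf/f replicate 2 (2.30, adjusted p 0.0760) and without replicate 3 of both groups (2.17, adjusted p 0.0694). The range over all alternatives was 4.84e-05 to 0.125. Nfkbia, which holds NF-kB in the cytoplasm, differed by 0.75 (adjusted p 0.193), Irak3, a blocking kinase of the Myd88 complex, by 0.88 (adjusted p 0.227) and Nlrc5 by 0.74 (adjusted p 0.275). Without replicate 3 of both groups the differences of Irak3 and Nlrc5 were 0.56 and 0.39, and with array weights those of Nfkbia, Irak3 and Nlrc5 were 0.42, 0.40 and 0.28. Of 16 tested genes of 19, 4 were higher and 0 lower by unadjusted p, with a median of 0.08 that became -0.05 when arrays were scaled to their median. The count fell to 2 on leaving out mPGC-1α replicate 3 (median -0.06) or replicate 1 of PGC-1αf/f (median -0.02), to 2 with array weights (median -0.0078) and to 1 without replicate 3 of both groups (median 0.0068).

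Induced cytokines and chemokines were the list with the highest median, 1.15 over 11 of 20 genes, with 9 higher and 0 lower by unadjusted p. Of these 11, Cxcl2 and Nos2 (the inducible nitric oxide synthase) were well above background on 1 of 3 PGC-1αf/f arrays and entered through the mPGC-1α arrays. Among the 9 genes well above background on all 6 arrays, 8 were above 0, 7 were higher by unadjusted p and the median was 1.03. By limma 0 passed the adjusted threshold. In the deposited table without normalization 3 did, among them Cxcl2, and 456 of all 25257 tested probes passed there, rather than 20. The neutrophil attractant Cxcl2 was at -5.43, -2.97 and -6.48 in PGC-1αf/f and at -1.59, -2.02 and -0.14 in mPGC-1α microglia, and no difference is given for a gene mostly below background in the controls. The monocyte attractants Ccl3 and Ccl4 differed by 0.72 (SE 0.21, adjusted p 0.202) and 1.15 (SE 0.34, adjusted p 0.206), and the interleukin gene Il1b by 2.04 (adjusted p 0.194), or 1.24 without replicate 3 of both groups. With array weights Ccl4 was at 0.59 and Il1b at 0.89. For Ccl3, Ccl4 and Il1b every mPGC-1α array lay above every control, a pattern of 11.4% of the tested probes with 6 values. The single gene below 0 was Il6, an interleukin gene (-0.23, SE 0.38, adjusted p 0.777). Leaving out replicate 3 of PGC-1αf/f turned it to 0.16, and leaving out replicate 1 of that group gave -0.62. Il1a, which had values on 2 PGC-1αf/f and 3 mPGC-1α arrays and is not among the 11, differed by -0.50 (SE 0.38, adjusted p 0.522). The list median was 1.19 without PGC-1αf/f replicate 3, where 9 genes had an unadjusted p under 0.05. The values were 0.97 and 6 genes without mPGC-1α replicate 3, and 1.08 and 4 genes without both arrays. With array weights it was 0.67 with 5.

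Markers of other cell types were set beside these values. Of 15 tested markers of monocytes and neutrophils, 14 were above 0 (median 1.45, with 0 at an unadjusted p under 0.05). Their mean level was 2.39, 2.82 and -0.68 in PGC-1αf/f and 2.78, 3.04 and 3.09 in mPGC-1α microglia. The low array was PGC-1αf/f replicate 3, and the remaining controls were near the mPGC-1α arrays. Markers of lymphocytes had a median of 0.89 over 8 genes, with Cd79a, Klrb1c and Ncr1 well above background on no array. Border macrophage markers had a median of 0.27, those of dendritic cells 0.51 (3 of 7 higher by unadjusted p) and those of endothelial cells 0.76, with Clec9a, Xcr1, Zbtb46 and Tie1 well above background on no array. Replicate 3 of PGC-1αf/f was the lowest array in the mean level of dendritic cell markers (-3.12, the others from -2.68 to -1.88) and of endothelial markers (-2.90, the others from -2.13 to -1.34). It was also the lowest for lymphocyte markers, at -3.56 with the others from -2.33 to -1.59. Medians were -0.01 for astrocytes, 0.18 for neurons (Slc17a7 well above background on no array) and -0.66 for oligodendrocytes, of which 5 of 8 were lower by unadjusted p. Microglial markers had a median of -0.08 and mean levels from 3.79 to 4.18. The part of these cells in the cytokine, inhibitor and interferon values was not tested.

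Other innate sensors outside the TLR family had a median of 0.28 over 16 of 18 genes, with 4 higher and 1 lower by unadjusted p. Among the 14 well above background on all 6 arrays the median was 0.09, with 3 higher and 1 lower. Over all 16 the number higher was 2 on leaving out mPGC-1α replicate 3 and 3 to 5 on leaving out each of the other arrays. Zbp1, a sensor of nucleic acids in the Z form, was at 0.05, 0.40 and -0.58 in PGC-1αf/f and at 0.69, 1.41 and 1.89 in mPGC-1α microglia. The groups did not overlap, and 11.4% of the tested probes with 6 values had this order. The difference of 1.37 (SE 0.36) had an adjusted p of 0.178 and was 0.82 without replicate 3 of both groups. Clec4e, a receptor for mycobacterial glycolipid that neutrophils also express, was well above background on 1 of 3 PGC-1αf/f and 3 of 3 mPGC-1α arrays, so that no difference is given for it. Nlrc4, an inflammasome sensor, had a fitted difference of 0.65, with 2 of 3 PGC-1αf/f arrays well above background. Ddx41, a cytosolic DNA sensor, differed by -0.34 (adjusted p 0.259) by its brighter probe and by -0.18 (adjusted p 0.675) by the other.

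**Figure D4:**
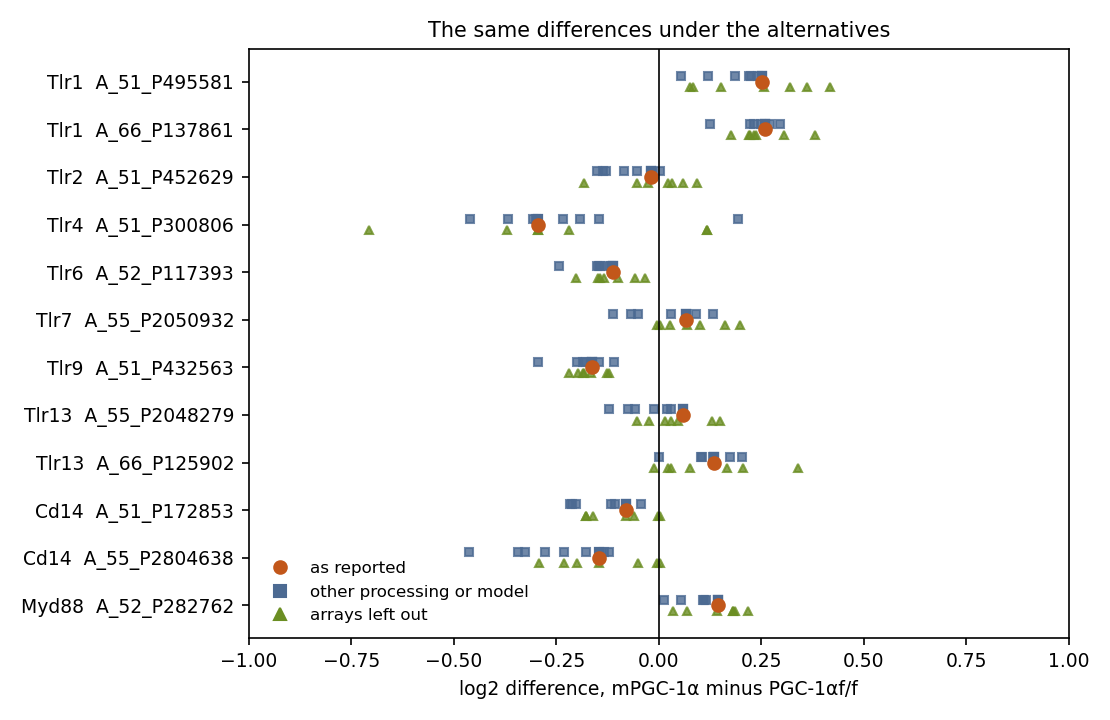
Log2 difference, mPGC-1α minus PGC-1αf/f (horizontal axis), of the 12 tested member probes as reported (circles), under other processing or models (squares) and with arrays left out (triangles). All values lie between -0.71 and 0.42, and those of Tlr2, Tlr4, Tlr7, Tlr13 and Cd14 fall on both sides of 0.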

How the data were processed

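The authors amplified RNA of P2RY12-selected microglia, labelled it with Cy5 and hybridised it to 1-colour arrays, 3 per group. For each spot, the deposited scanner files hold the intensity that Agilent Feature Extraction 11.5.1.1 gives after background subtraction. They also flag outlier and saturated spots and those well above background, as other values of 0 or 1 that the authors deposited. The series-wide deposited table holds the same intensity without normalization between arrays. The study's methods name GeneSpring and give no test per gene.

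Control spots and outlier-flagged spots were left out. From the log2 of the deposited intensity the 75th percentile of each array was subtracted, and spots of a probe were averaged. A probe was tested if it was well above background in the whole of a group, with lmFit and eBayes of limma 3.58.1 (two-sided, Benjamini-Hochberg over all 25257 tested probes) in R 4.3.3 with data.table (version 1.17.8). The labels do not say whether arrays are separate animals, so p-values measure the spread between 3 arrays a group, whose number limits the precision. On simulated data for this comparison, 42% of 50 changes of 1 log2 unit and 80% of 50 changes of 2 were called. The simulation fitted 25333 probes, which equals the number tested with flagged spots kept. Probes were named through their transcript accession and a RefSeq table (GRCm38.p6, names only). Where a gene was given once, its brightest probe with 6 values stood for it. Groups and replicate numbers came from the labels. Deviations of same-numbered arrays had correlations of 0.139, 0.127 and 0.0187, and the numbers were not taken to pair samples.

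The members, the pathway lists and the marker lists were chosen with earlier results of these data known. All members were named, of each pathway list up to 4 genes with the smallest p and any past the threshold, and for each member the 3 genes with the highest r. Ly96, Unc93b1, Fos, Il6, Il1a, Nos2, the Y-linked genes and Xist were chosen after their values had been seen. There were 17 alternatives of scaling, background correction, filter, model and arrays, and keeping flagged spots was 1 more, chosen after seeing the data. Promoter windows came from RefSeq (GRCm38.p6). Plots used Python 3.11.15 with matplotlib 3.10.9, numpy 2.4.6 and pandas 2.3.3.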

Additional observations from a re-analysis of the deposited data

How the results depend on the processing

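No member gene passed the adjusted threshold by limma under any of the 18 alternatives. At an unadjusted p under 0.05 there was 1 member probe with array weights (Tlr1) and 0 to 1 on leaving out arrays (Tlr1 without mPGC-1α replicate 1). The fit of Tlr4 without PGC-1αf/f replicate 1 is not counted, since it left 1 control value. Against 1 member probe with groups that did not overlap, there were 2 with normexp background correction, 0 in the deposited table without normalization, 2 with no filter on dim probes, 2 with flagged spots kept and 1 to 4 on leaving out arrays. The 4 were without replicate 3 of both groups, and fewer arrays alone make such an order more frequent. No share of all probes is given for these settings, so a rise in these counts cannot be read as clearer separation. Against 17 pathway genes at an unadjusted p under 0.05 there were 10 in the deposited table and 9 to 17 on leaving out arrays, the lowest without replicate 3 of both groups. There were 15 with array weights and 16 with scaling to the array median. The count rose to 19 with quantile normalization, with no filter on dim probes (of 80 genes) and with flagged spots kept (of 77). It was 21 with slide columns as random blocks. Signs of small differences turned with the scaling. Tlr7 was at -0.0495 with quantile normalization, -0.0666 with scaling to the array median and -0.112 with normexp, and the brighter Tlr13 probe at -0.0575, -0.0747 and -0.0110, and at -0.122 with array weights. Under each of these 3 scalings 4 member probes were above and 8 below 0, instead of 6 and 6. Tlr4 turned to 0.19 with the replicate block and Tlr2 to 0.00245 with slide columns as random blocks. The Tlr4 value rests on replicate 1 of both groups, the only number with unflagged values in both. The replicate block left 0 member probes at an unadjusted p under 0.05, 19 pathway genes and 0 probes of the whole array past the adjusted threshold (Dusp1 adjusted p 0.0807), and whether the numbers mark pairs is not stated in the labels. On leaving out 1 array, differences ran from -0.181 to 0.0944 for Tlr2, -0.707 to 0.117 for Tlr4, -0.0039 to 0.199 for Tlr7, -0.0241 to 0.151 for the brighter Tlr13 probe, -0.0104 to 0.339 for the dimmer Tlr13 probe, -0.178 to 0.00212 for the brighter Cd14 probe and -0.292 to 0.0024 for the other Cd14 probe. Without replicate 3 of both groups Tlr2 was at 0.0597, Tlr4 at 0.117 and the brighter Tlr13 probe at -0.0521. Wherever PGC-1αf/f replicate 1 or 3 was left out, Tlr4 had 1 control value. The causes were not tested. A change under about 1 log2 unit would often have been missed with 3 arrays a group, and Tlr3 and Tlr4 were limited by flagged spots.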
